A study of Saccharomyces cerevisiae x Saccharomyces kudriavzevii and Saccharomyces cerevisiae with 12 samples.

Results

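The genes that encode the proteins of the mitochondrial ribosome were examined in 2 wine yeast hybrids of S. cerevisiae and S. kudriavzevii. The members were taken from a list of 41 systematic names of MRPL and MRPS genes, the genes of the proteins of the large and the small subunit of that ribosome. The list was not chosen by a measured value. Of the 41 names, 40 had a row among the 6178 ORFs of the table, and YLR312W-A was not analysed here. The table does not pair the systematic names with gene names or functions, so members are given by systematic name only, and no role is given to a single member. A systematic name states, in its letters, the chromosome, the chromosome arm and the strand (a final W for Watson, C for Crick) of an ORF.

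The mitochondrial ribosome is a machine of its own, apart from the ribosomes of the cytosol. In yeast it translates the few messengers of the mitochondrial genome, which mainly encode subunits of the respiratory chain and of the ATP synthase. Its ribosomal RNAs come from the mitochondrial genome, whereas nearly all of its proteins are encoded in the nucleus, made in the cytosol and imported. Yeast needs this ribosome to respire and to keep its mitochondrial genome, while fermentation of sugar can proceed without respiration.

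The hybrids, Lalvin W27 and VIN7, were each hybridized against the S. cerevisiae wine strain Lalvin T73 on 12 arrays of PCR-amplified ORFs of strain S288c, 3 (replicates A, B and C) for each hybrid at 12 and at 28 °C. Cells were taken from wine fermentations of Tempranillo must at the start of the stationary phase, and each array held cDNA of a hybrid (Cy3) and of T73 grown at the same temperature (Cy5), without dye swaps. Both hybrids are allotriploid, with some chimeric chromosomes in Lalvin W27, and the ratio does not separate the alleles, nor was the binding of S. kudriavzevii cDNA to the S288c ORFs assessed. The arrays of a group are labelled biological replicates, the methods describe 2 independent fermentations and 3 hybridizations, and the source text of the W27 arrays at 28 °C says 12 °C against their titles, which were used. Arrays of a group may thus share a fermentation, and an SD or p over them may not measure variation between fermentations.

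All values are log2 ratios of hybrid over T73, so that 1 stands for 2-fold higher in the hybrid and −1 for 2-fold lower. The direction is likely, not stated. It rests on the dyes and on YMR210W (median −1.60 in W27 at 12 °C) and YIR007W (median 1.49 in VIN7 at 12 °C), for which the direction is given elsewhere by systematic name. Both ORFs were read at 12 °C, so at 28 °C the direction rests on the dyes alone. One VIN7 array at 28 °C, replicate C, gave Pearson correlations across ORFs of −0.38 to −0.70 with 4 arrays at 12 °C, so the results that rest on it are also given with its sign turned. None of its correlations with the other arrays, those of its own group included, lay below −0.3. With it turned, 12.6% of ORFs were above and 12.5% below 0 on all 3 arrays of its group, against 19.9% and 13.3% as deposited. Which sign is right was not tested, and the turned sign is an alternative only. Across arrays, 5815 to 6178 ORFs had a value, the median over ORFs lay between −0.14 and 0.30, and the SD over ORFs between 0.60 and 1.59. As the spread and the centre differed between arrays, the same value is not equally far from the bulk of ORFs on each of them.

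Of the possible values of the 40 members, 473 were present and 7 missing, 5 of them on replicate B of VIN7 at 28 °C. Values on all 12 arrays were available for 33 members and on all arrays but 1 for the other 7. The lowest value was −7.94 (YMR286W, W27 at 12 °C, replicate C) and the highest 5.33 (YCR003W, W27 at 12 °C, replicate B). Values at least 2-fold from equal made up 27.3% of the member values (129 of 473) and 30.3% of the values of all ORFs. Array by array, the share of members beyond 2-fold was above that of all ORFs on 3 arrays and below it on 9. It ran from 2.5% against 12.0% on replicate A of VIN7 at 28 °C to 60% against 49.4% on replicate B of VIN7 at 12 °C, and on replicates A and C of W27 at 28 °C it was 7.69% against 22.6% and 5% against 20.1%.

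**Figure D1:**
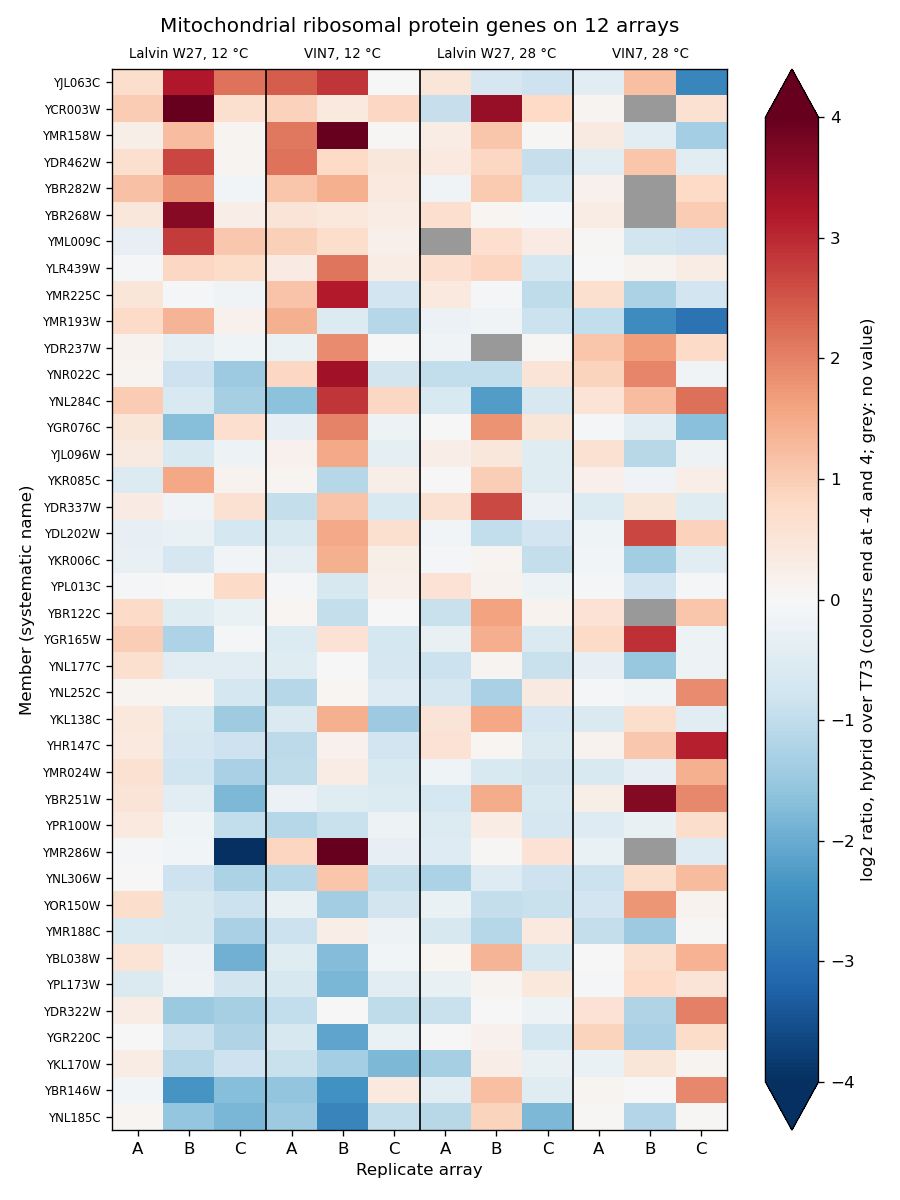
Log2 ratio of hybrid over T73 for the 40 members (rows, ordered by their mean at 12 °C) on 12 arrays (columns, by group and replicate). Red is higher and blue lower in the hybrid, colours end at −4 and 4, and grey marks 1 of the 7 missing values. Colours differ between replicates of a group, and replicates B hold many of the deepest ones.

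At 12 °C, the members did not share a direction over the arrays of either hybrid. In W27 at 12 °C, the median over members was 0.33 on replicate A, −0.40 on B and −0.58 on C, with 29, 12 and 12 of 40 members above 0. In VIN7 at 12 °C it was −0.34 on A, 0.41 on B and −0.24 on C, with 15, 26 and 14 of 40 above 0. In both groups 1 array thus pointed against the other 2. The median over all ORFs stayed between −0.14 and 0.03 on these arrays.

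At 28 °C, the median over members in W27 was −0.165 on A (13 of 39 above 0), 0.16 on B (28 of 39) and −0.58 on C (11 of 40). In VIN7 at 28 °C it was −0.02 on A (19 of 40), −0.01 on B (17 of 35) and 0.20 on C (24 of 40). The member median lay below that of all ORFs on 9 of the 12 arrays and above it on 3. In W27 at 28 °C it was lower on each of the 3 arrays, by a mean of 0.28 on the log2 scale (difference −0.28 ± 0.18, SD, n = 3, range −0.48 to −0.14 as member minus all ORFs). In the other groups this difference changed sign between arrays, with means at 12 °C of −0.14 ± 0.39 for W27 and −0.06 ± 0.38 for VIN7, and at 28 °C of −0.07 ± 0.14 for VIN7 (SD, n = 3).

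**Figure D2:**
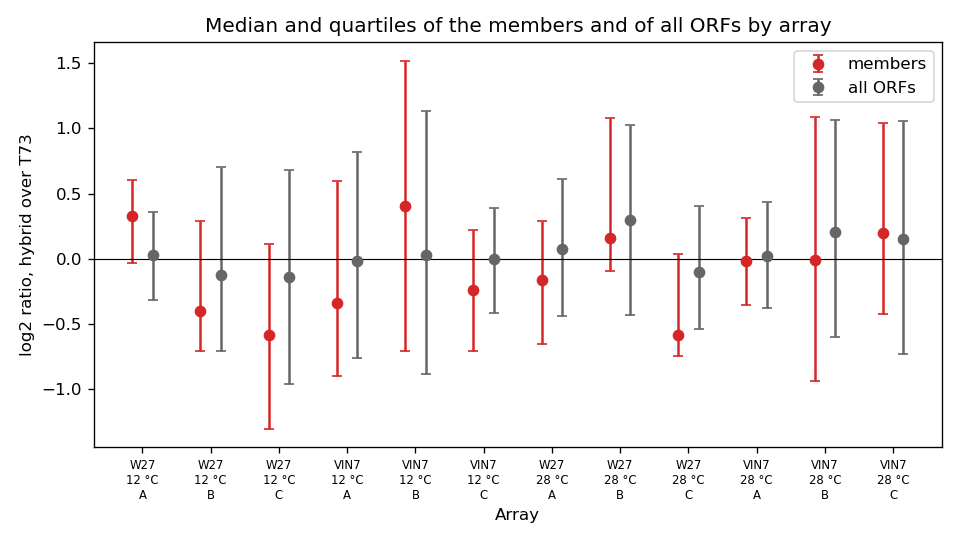
Median (point) and quartiles (bars) of the log2 ratio over the members (red, 35 to 40 per array) and over all ORFs (grey) on each of the 12 arrays. The member medians run from −0.58 to 0.41, lie below those of all ORFs on 9 arrays, and their quartiles overlap those of all ORFs on each array.

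Single members were tested with limma in 1 fit of all ORFs and arrays, with Benjamini-Hochberg adjustment over all ORFs. None of the 40 members passed an adjusted p of 0.05 for either hybrid at either temperature. Over all ORFs, 0% passed for W27 and 0.551% for VIN7 at 12 °C, and 0.0324% for W27 and 0.0162% for VIN7 at 28 °C. At an unadjusted p under 0.05, 6 members passed for W27 (15%, against 14.7% of all ORFs) and 5 for VIN7 (12.5% against 21%) at 12 °C, and 0 for W27 (against 10%) and 5 for VIN7 (12.5% against 13.9%) at 28 °C. As fitted, none of these shares stood above that of all ORFs by more than the weight of 1 member. The 95% interval of a member's mean reached a median of 1.10 to 1.12 to either side, so that changes of about 2-fold could not be told from 0 for most members, and the absence of a call does not show equal expression. Leaving out 1 array moved these counts by over 1.5 times in several cases, given here with the share of all ORFs. At 12 °C the count was 1 for W27 without replicate B (4.93%). For VIN7 it was 1 without replicate B (7.58%) and 11 without C (25.8%). At 28 °C it was 1 for W27 without A (6.95%), B (5.45%) or C (10.8%), and 3 for VIN7 without B (8.46%). With replicate C of VIN7 turned in sign, its count at 28 °C was 1 (8.75%).

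In W27 at 12 °C, 4 members lay at least 2-fold above T73 by the median over arrays (YBR282W, YCR003W, YJL063C and YML009C, 10% of the members against 10.6% of all ORFs) and 3 at least 2-fold below (YBR146W, YDR322W and YNL185C, 7.5% against 11.2%). These counts were 5 and 11 without replicate A, 1 and 1 without B, and 7 and 1 without C. Shares of all ORFs were not computed for counts past 2-fold with an array left out, in this group or the others. With the same sign on all 3 arrays there remained YCR003W and YJL063C above (5% against 8.27% of all ORFs) and YBR146W below (2.5% against 8.04%). YJL063C, on the left arm of chromosome X, measured 0.69, 3.21 and 2.17 on A, B and C. All 3 arrays were thus above 0, and its mean was 2.02 ± 1.27 (SD, n = 3), with an adjusted p of 0.315 in limma. YCR003W, the only member on chromosome III, measured 1.02, 5.33 and 0.63, with a mean of 2.33 ± 2.61 (SD, n = 3) and an adjusted p of 0.321 in limma. The mean rested on replicate B, without which it was 0.83. YBR146W, on chromosome II, measured −0.11, −2.35 and −1.69, so replicate A stood near 0, and its mean was −1.38 ± 1.15 (SD, n = 3, adjusted p = 0.334 in limma).

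The members of W27 at 12 °C did not share a sign. Above 0 on all 3 arrays were 6 of 40 (15%, against 21.9% of all ORFs) and below 0 on all 3 were 7 (17.5%, against 25.1%), so that most members changed sign between replicates. YMR286W showed how far 1 array could stand apart: it measured −0.04 on A, −0.105 on B and −7.94 on C.

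In VIN7 at 12 °C, 4 members lay at least 2-fold above T73 (YBR282W, YJL063C, YMR158W and YMR225C, 10% against 13.9% of all ORFs) and 3 at least 2-fold below (YBR146W, YKL170W and YNL185C, 7.5% against 11.9%). The counts were 8 and 6 without replicate A, 3 and 5 without B, and 8 and 7 without C. The same sign on all 3 arrays was found for 2 above (YBR282W and YMR158W, 5% against 8.54%) and 2 below (YKL170W and YNL185C, 5% against 8.78%). YMR158W, on the right arm of chromosome XIII, measured 2.10 on A, 4.785 on B and 0.05 on C. The arrays were all above 0 but C lay at 0, and the mean of 2.31 ± 2.37 (SD, n = 3) had an adjusted p of 0.126 in limma. Without replicate C the mean was 3.44 with an adjusted p of 0.0359 in limma, and without replicate B it was 1.08. It was the only member that passed the test in this group under any alternative.

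YBR282W, on chromosome II, measured 1.12, 1.42 and 0.40 in VIN7 at 12 °C, a mean of 0.98 ± 0.52 (SD, n = 3, adjusted p = 0.247 in limma). YKL170W, on chromosome XI, had the closest replicates of the members named here for this group, with −0.88, −1.37 and −1.78. All 3 lay below 0, for a mean of −1.34 ± 0.45 (SD, n = 3) and an adjusted p of 0.137 in limma. YNL185C, on chromosome XIV, measured −1.45, −2.63 and −0.96, a mean of −1.68 ± 0.86 (SD, n = 3, adjusted p = 0.139 in limma). Above 0 on all arrays were 7 of 40 members (17.5% against 21.4% of all ORFs) and below 0 on all were 9 (22.5% against 21.8%). YJL063C, high in W27 at this temperature, measured 2.43 and 2.87 on A and B and −0.01 on C in VIN7.

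Both hybrids were hybridized against T73 at 12 °C, so a deviation of T73 would move both, and values in both cannot count as 2 independent results. With that limit, the members past 2-fold in either hybrid are given here side by side by their medians, in W27 and then in VIN7. Above T73, they were 2.17 and 2.43 for YJL063C, 1.17 and 1.12 for YBR282W, 1.02 and 0.82 for YCR003W, 1.06 and 0.71 for YML009C, 0.235 and 2.10 for YMR158W, and −0.06 and 1.14 for YMR225C. Below T73, they were −1.69 and −1.57 for YBR146W, −1.56 and −1.45 for YNL185C, −1.32 and −0.998 for YDR322W, and −0.82 and −1.37 for YKL170W.

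In W27 at 28 °C, 0 of 40 members lay at least 2-fold above T73 (against 7.76% of all ORFs) and 1 below, YNL185C (2.5% against 6.08%). This ORF measured −1.10 on A, 0.89 on B and −1.79 on C, so its arrays did not share a sign (0 of 38 members past 2-fold did, against 4.16% of all ORFs above and 4.63% below), and its mean was −0.67 ± 1.39 (SD, n = 3, adjusted p = 0.716 in limma). Without replicate A and without replicate C, 3 members lay 2-fold above, and without replicate B 2 lay below. Of the 38 members with a value on all 3 arrays, 1 was above 0 on all (YMR158W at 0.31, 1.11 and 0.04, 2.63% against 19% of all ORFs). Below 0 on all 3 were 6 members (15.8% against 14.6%), with YOR150W at −0.27, −0.96 and −0.89 and YNL306W at −1.26, −0.53 and −0.84 among them, which were picked for display after their values were seen.

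In VIN7 at 28 °C, 4 members lay at least 2-fold above T73 (10% against 11.3% of all ORFs) and 1 at least 2-fold below (2.5% against 5.48%). The counts were 7 and 3 without replicate A, 5 and 2 without B, and 5 and 2 without C. All 5 had the same sign on their 3 arrays (11.4% of 35 members above against 6.74% of all ORFs, and 2.86% below against 2.94%). The 4 above made up the whole of the members above 0 on all arrays (11.4% of 35, against 19.9% of all ORFs), and 5 of 35 were below 0 on all (14.3% against 13.3%). With replicate C turned in sign, 2 were above 0 on all arrays (against 12.6% of all ORFs) and 4 below (against 12.5%).

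YBR251W, on chromosome II, measured 0.24 on A, 3.69 on B and 1.92 on C, for a mean of 1.95 ± 1.72 (SD, n = 3, adjusted p = 0.227 in limma). YDR237W, on chromosome IV, measured 1.12, 1.68 and 0.78, the closest replicates of these 5, with a mean of 1.19 ± 0.45 (SD, n = 3) and an adjusted p of 0.277 in limma. YNL284C, on chromosome XIV, measured 0.555, 1.22 and 2.20 (mean 1.33 ± 0.83, SD, n = 3, adjusted p = 0.4 in limma). YHR147C, the only member on chromosome VIII, measured 0.14, 1.06 and 3.11. Replicate C supplied most of its mean of 1.44 ± 1.52 (SD, n = 3, adjusted p = 0.274 in limma), which was 0.60 without it.

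YMR193W, on chromosome XIII, was the member furthest below T73 in VIN7 at 28 °C, with −0.98, −2.51 and −2.96. All 3 arrays lay at or near 2-fold below or further, the mean was −2.15 ± 1.04 (SD, n = 3), and the adjusted p of 0.146 in limma was the lowest of any member in this group. With the sign of replicate C turned, its mean was −0.17, that of YBR251W 0.67 and that of YDR237W 0.67, while YHR147C and YNL284C changed direction (−0.63 and −0.14). None of these 5 results therefore held its size with replicate C turned. Which sign of that array is right was not tested.

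**Figure D3:**
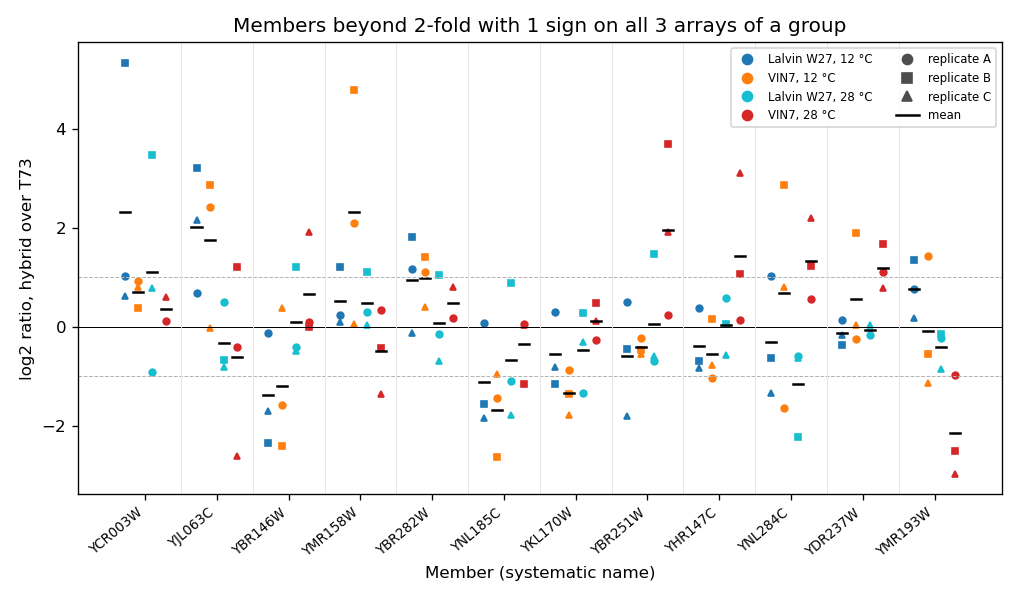
Log2 ratio of hybrid over T73 on each array for the 12 members that passed 2-fold by the median with the same sign on all 3 arrays of at least 1 group. Colours mark the groups, shapes the replicates, black bars the means, and dashed lines 2-fold. The highest array of YCR003W is replicate B of W27 at 12 °C (5.33, group mean 2.33), and that of YMR158W is replicate B of VIN7 at 12 °C (4.785, group mean 2.31).

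The hybrids were also compared with each other through their ratios over the shared T73, as VIN7 minus W27. At 12 °C, 0 of 40 members passed an adjusted p of 0.05 in limma, as did 0% of all ORFs, and 1 member had an unadjusted p under 0.05 (2.5% against 2.22% of all ORFs). The median difference over members was −0.06 (0.07 over all ORFs), with a median interval of 1.56 to either side. It changed sign when arrays were left out in turn, from −0.29 without replicate C of W27 to 0.175 without A. No member had all VIN7 arrays above all W27 arrays or the reverse, against 3.61% and 2.31% of all ORFs. The lowest p belonged to YMR286W, with a difference of 4.37 (95% interval 0.58 to 8.15, adjusted p = 1.00 in limma). It rested on 2 arrays, −7.94 on replicate C of W27 and 4.48 on replicate B of VIN7, and was 1.75 without the former and 2.96 without the latter. YNR022C followed with 1.89 (−0.08 to 3.86), from 0.10, −0.84 and −1.45 in W27 and 0.84, 3.36 and −0.72 in VIN7, and was 0.79 without replicate B of VIN7. Next came YMR158W with 1.79 (−0.22 to 3.80), which was 0.56 without the same array. The unadjusted count was 0 without replicate C of W27 (2.30% of all ORFs) or B of VIN7 (0.816%) and 2 without A of W27 (2.32%). It was 3 without A of VIN7 (3.75%) and 4 without C of VIN7 (4.11%). The arrays of both hybrids overlapped for all 3 members.

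At 28 °C, again 0 of 40 members passed an adjusted p of 0.05 in limma for VIN7 minus W27 (0% of all ORFs), while 4 had an unadjusted p under 0.05 (10% against 8.99% of all ORFs). The median difference over members was 0.30 (−0.0007 over all ORFs), with a median interval of 1.60 to either side. It was 0.13, 0.46 and 0.03 without replicates A, B and C of W27, 0.04 without replicate C of VIN7 and −0.17 with the sign of the latter turned, so this shift was not stable. Of 33 members with all 6 values, YNL284C had all VIN7 arrays above all W27 arrays (3.03% against 7.36% of all ORFs). YGR076C and YMR193W had them all below (6.06% against 6.39%). With replicate C of VIN7 turned in sign, 0 members had either (1.98% of all ORFs above and 3.23% below).

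YNL284C differed by 2.48 (95% interval 0.36 to 4.61, adjusted p = 0.547 in limma). It measured −0.60, −2.23 and −0.63 in W27 and 0.555, 1.22 and 2.20 in VIN7, so all W27 arrays were below 0 and all VIN7 arrays above. YDL202W differed by 1.77 (0.21 to 3.33), from −0.12, −0.98 and −0.78 in W27 and −0.17, 2.69 and 0.92 in VIN7, where replicate A of VIN7 lay among the W27 arrays. YMR193W differed by −1.75 (−3.30 to −0.20), from −0.22, −0.14 and −0.85 in W27 and the VIN7 values given above. With VIN7 replicate C turned in sign, these differences were 1.01, 1.16 and 0.23, and 0 of 40 members had an unadjusted p under 0.05 (against 2.22% of all ORFs). The unadjusted count ranged from 1 to 7 when 1 array was left out. It was 1 of 39 without replicate B of W27 (7.75% of all ORFs) and 1 of 35 without C of VIN7 (4.80%). It was 2 of 39 without A of W27 (7.21%), 2 of 40 without B of VIN7 (9.59%) and 7 of 35 without A of VIN7 (14.7%).

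**Figure D4:**
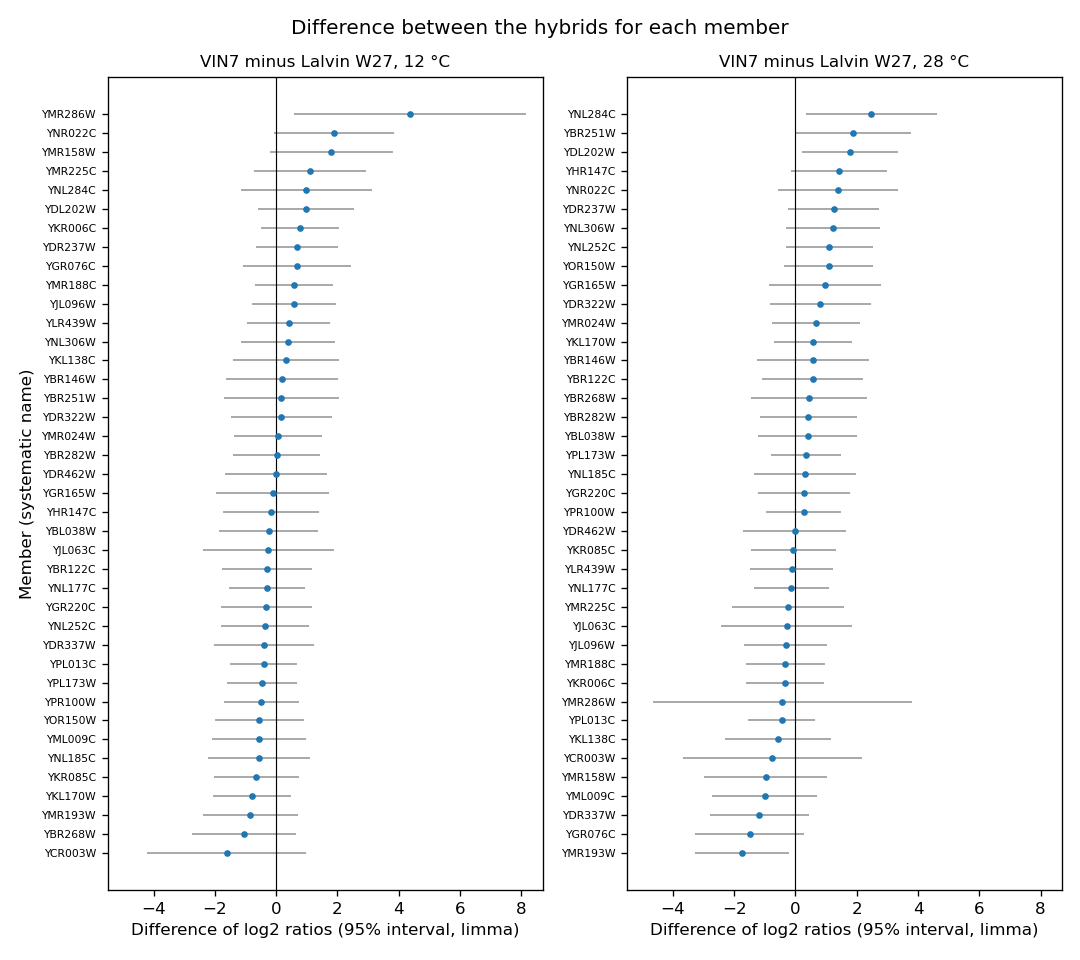
Difference of the log2 ratios, VIN7 minus Lalvin W27, for the 40 members at 12 °C (left) and 28 °C (right), each panel in its own order, with the estimate (point) and its 95% interval from limma (line). Most intervals cross 0, and at 12 °C only that of YMR286W (0.58 to 8.15) does not.

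The ratios at 12 and 28 °C were each taken against T73 of that temperature, so their difference holds any change of T73 as well. For 12 minus 28 °C, 0 of 40 members passed an adjusted p of 0.05 in limma in W27 or in VIN7 (0% of all ORFs in each). The median difference was −0.02 in W27 (−0.19 over all ORFs) and −0.30 in VIN7 (−0.17 over all ORFs). Leaving out 1 array gave −0.24 (without replicate A at 12 °C) to 0.16 (without B at 28 °C) in W27, and −0.67 (without A at 28 °C) to −0.003 (without A at 12 °C) in VIN7, which was 0.13 with its replicate C at 28 °C turned in sign. An unadjusted p under 0.05 was found for 1 member in W27 (2.5% against 5.67% of all ORFs) and 8 in VIN7 (20% against 19.7%). In W27 this count was 3 without replicate A at 12 °C (8.25% of all ORFs) and 0 without replicate B (2.61%) or C (7.46%) at 28 °C. In VIN7 it was 5 without replicate A (11.5%) and 4 without B (12.1%) at 12 °C. It was 5 of 35 without C at 28 °C (10.5%), and 1 of 40 with the sign of that array turned (3.98%).

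Of 38 members in W27, YJL063C and YMR193W had all 12 °C arrays above all 28 °C arrays (5.26% against 4.91% of all ORFs) and 0 had them all below (against 9.94%). YJL063C measured 0.50, −0.66 and −0.81 in W27 at 28 °C, and its difference of 2.35 (95% interval 0.21 to 4.48) had an adjusted p of 0.752 in limma. YMR193W measured 0.77, 1.35 and 0.18 in W27 at 12 °C, and its difference was 1.17 (−0.38 to 2.72). Of 35 members in VIN7, YML009C had all 12 °C arrays above (2.86% against 8.57%), and YBL038W, YBR251W, YKL170W and YPL173W had them all below (11.4% against 12.1%). These shares stood near or below those of all ORFs. Among them YBR251W had the largest difference, −2.37 (−4.24 to −0.50, adjusted p = 0.189 in limma), from −0.22, −0.48 and −0.55 at 12 °C. The difference of YMR158W in VIN7 was 2.80 (0.78 to 4.81, adjusted p = 0.178 in limma), from the 12 °C values above and 0.345, −0.43 and −1.36 at 28 °C, and its adjusted p was 0.0437 without replicate C at 12 °C. With replicate C of VIN7 at 28 °C turned in sign, the differences of these members in VIN7 were 0.57 for YML009C, −0.52 for YBL038W, −1.09 for YBR251W, −1.38 for YKL170W, −1.07 for YPL173W and 1.89 for YMR158W, and the arrays of both temperatures did not overlap for 1 member above (YLR439W, 2.12% of all ORFs) and 1 below (YKL170W, 4.58%). As deposited, same-letter arrays of VIN7 at 12 and 28 °C deviated together (r of 0.22 to 0.57). The intervals and p values above for this comparison leave this out of account. The pairing was read from the data, what the letters share is not known, and it was not recomputed with replicate C at 28 °C turned. With the letter as a block over the VIN7 arrays, 0 of 40 members passed an adjusted p of 0.05 in limma. An unadjusted p under 0.05 was found for 12 (against 28.9% of all ORFs). The lowest adjusted p of a member in that fit was 0.0713 in limma, for YJL063C with a difference of 2.37. With replicate C at 28 °C turned in sign, the difference of YJL063C was 0.63.

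The interaction of hybrid and temperature, the 12 minus 28 °C difference in VIN7 less that in W27, gave 0 of 40 members at an adjusted p of 0.05 (0% of all ORFs) and 0 at an unadjusted p under 0.05 (against 3.35%). The latter count was 1 without replicate A (2.01% of all ORFs) and 2 without B (2.12%) of W27 at 12 °C. It was 2 without C of VIN7 at 12 °C (6.96%) and 4 of 35 without A of VIN7 at 28 °C (6.92%). The median over members was −0.57 (0.08 over all ORFs), between −0.78 and −0.22 when 1 array was left out, and −0.02 with replicate C of VIN7 turned in sign at 28 °C. The lowest p values were those of YMR158W (2.76, 95% interval −0.08 to 5.61), YGR076C (2.17, −0.34 to 4.67) and YMR286W (4.80, −0.88 to 10.47), each with an adjusted p of 0.925 in limma. YGR076C measured 0.48, −1.71 and 0.68 in W27 at 12 °C and 1.80 on replicate B at 28 °C, against 1.99 on replicate B of VIN7 at 12 °C and −1.67 on replicate C of VIN7 at 28 °C. In W27 at 28 °C its other arrays measured −0.02 (A) and 0.50 (C). In VIN7 they were −0.32 (A) and −0.21 (C) at 12 °C, and −0.07 (A) and −0.47 (B) at 28 °C. At 28 °C all its VIN7 arrays thus lay below all W27 arrays, while at 12 °C the arrays of both hybrids overlapped. With replicate C of VIN7 at 28 °C turned in sign, the interaction was 1.85 for YMR158W, 1.05 for YGR076C and 4.28 for YMR286W.

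By their names, the members lie on 12 of the 16 chromosomes (none on I, V, VI and IX), 23 on the Watson and 17 on the Crick strand. Chromosome XIII holds 7 members, II and XIV 6 each, IV 5, XI 4, VII and XVI 3 each, X 2, and III, VIII, XII and XV 1 each. Ratios differed by chromosome for ORFs in general. The 6 members of chromosome II had a median at 28 °C of 0.67 in VIN7 (0.68 over all ORFs of that chromosome) and 0.16 in W27 (0.24), with all 6 above 0 in both (81.7% and 65.1% of its ORFs). Single arrays turned these signs. With replicate C of VIN7 turned in sign, 5 of 6 lay below 0 (median −0.29), and without replicate B of W27, 5 of 6 lay below 0 (median −0.40). At 12 °C their medians were −0.27 in W27 (0.25 over its ORFs) and −0.36 in VIN7 (0.37), with 4 of 6 below 0 in both (39.0% and 35.3% of its ORFs). Without replicate C of W27, 1 of 6 was below 0.

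The chimeric chromosomes of W27 are IV, V, IX, XIV and XV, and members lie on IV, XIV and XV. Allele composition can differ between genes of such a chromosome, as reported for IV, and that of the members was not determined here. The 5 members of IV did not share a sign in W27, with means from −0.84 to 1.14 at 12 °C and from −0.625 to 0.996 at 28 °C. YOR150W, the only member on XV, had means of −0.26 and −0.70 there. The 6 members of chromosome XIV all had a mean below 0 in W27. Their median was −0.51 at 12 °C (−0.23 over the ORFs of the chromosome, 61.7% of which lay below 0). At 28 °C it was −0.61 (range −1.15 to −0.49), where the ORFs of the chromosome had a median of −0.003 and 50.6% lay below 0. All 6 means stayed below 0 at 28 °C without any 1 array, whereas at 12 °C 3 of 6 were below 0 without replicate C (59.5% of the ORFs) and 5 of 6 without B (57.3%). By single arrays at 28 °C, YNL284C and YNL306W were below 0 on all 3. YNL185C (0.89) and YNL177C (0.115) were above 0 on replicate B, and YNR022C (0.50) and YNL252C (0.35) on C. In VIN7 their medians were −0.35 at 12 °C, with 4 of 6 below 0 (56.4% of the ORFs), and 0.46 at 28 °C, with 2 of 6 below (52.5%). With replicate C turned in sign, the latter were −0.43 and 5 of 6, and without it −0.09 and 4 of 6. This grouping was noticed after the values were seen and was not tested.

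YCR003W, on chromosome III, which has lost its S. kudriavzevii copy in VIN7, had means of 2.33 in W27 and 0.71 in VIN7 at 12 °C, beside medians over the ORFs of chromosome III of 0.66 and 0.69. At 28 °C its mean was 1.12 in W27, from −0.92, 3.48 and 0.79, beside a chromosome median of 0.47, and it was −0.062 without replicate B. In VIN7 at 28 °C its mean over 2 arrays was 0.36 (chromosome median 0.65), and −0.24 with replicate C turned in sign. In VIN7, some genes of chromosome VII also lack an S. kudriavzevii allele. Its 3 members ranged in VIN7 from −0.99 to 0.49 at 12 °C and from −0.74 to 1.16 at 28 °C. With replicate C turned in sign, the latter ran from −0.38 to 1.30. The 7 members of chromosome XIII ranged in VIN7 from −0.44 to 2.31 at 12 °C and from −2.15 to 0.16 at 28 °C, and in the latter from −0.82 to 0.425 with replicate C turned in sign.

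Replicates of a member spread somewhat more widely than those of ORFs in general in 3 groups, a difference that was not tested. The median SD over the 3 arrays of a group was, at 12 °C, 0.77 for members and 0.62 for all ORFs with W27 and 0.85 and 0.74 with VIN7. At 28 °C it was 0.74 and 0.66 with W27, and both were 0.85 with VIN7. The spread of single members ran from an SD of 0.11 to 4.54.

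How far the members varied together was described by the Pearson r of each member with the median of the other members over the arrays, each array centred on its median over all ORFs. The 12 points share T73 and, within a temperature, its preparations. The median r was 0.16 for the members (quartiles −0.09 and 0.40) and −0.02 for 6095 other ORFs (−0.26 and 0.23). An r above 0.5 was found for 4 of 40 members (10%) and for 7.28% of the other ORFs. An r above 0 was found for 27 of 40 members (67.5%) and 48.0% of the others. The median Spearman rho was 0.18 and −0.03. With that array (VIN7 at 28 °C, replicate C) turned in sign, the median r of the members was 0.10, and without it 0.18. With each array recentred and scaled to the same spread, it was 0.19 (−0.04 for the other ORFs), and 33 of 40 members had an r above 0 (82.5%, against 46.1%).

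The members that followed the others most were YMR024W (r = 0.64), YNL284C (0.59) and YNL306W (0.59), and those that ran against them YPL173W (−0.63), YPL013C (−0.58) and YKR085C (−0.53). With recentred and scaled arrays the highest was YNL177C (0.75), and YPL173W stayed the lowest (−0.67). YMR024W measured 0.595, −0.80 and −1.30 in W27 and −1.03, 0.30 and −0.60 in VIN7 at 12 °C, which is the same order of arrays as the member medians. At 28 °C the order was the same in VIN7 (−0.60, −0.33 and 1.42) but not in W27 (−0.165, −0.625 and −0.73). YPL013C stayed between −0.77 and 0.76 on all 12 arrays.

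**Figure D5:**
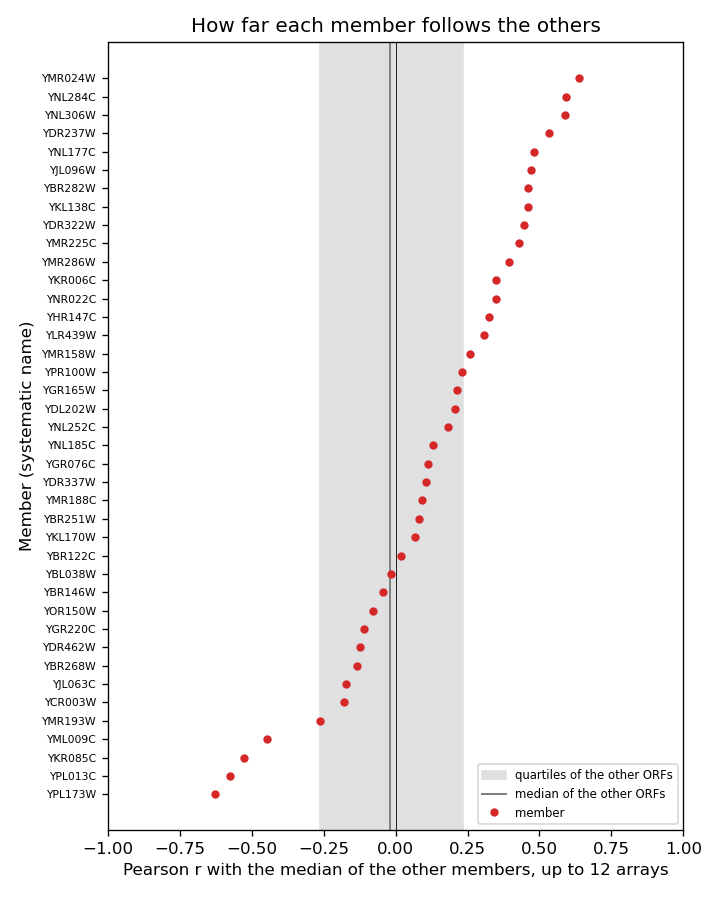
Pearson r over up to 12 arrays of each of the 40 members with the median of the other members (red points), beside the median (line) and quartiles (band) of 6095 other ORFs. Members run from −0.63 to 0.64, with a median of 0.16 against −0.02.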

How the data were processed

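Expression of each hybrid relative to T73 was measured on 12 two-channel arrays. Work by the authors before deposit comprised a global background subtraction (GenePix), a normalization of each array (Acuity), the exclusion of unfound spots and a correction for print tips made by hand. What was deposited is a table of log2 ratios of 6178 ORFs and 2 control features (the latter left out), with a column for each array. As spot intensities were not analysed here, the signal over background of a value is not known, and precision is limited by the number of arrays. All columns were matched to an array, and the sign was turned to hybrid over T73.

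Each ORF with values on at least 2 arrays was tested in limma (version 3.58.1, R 4.3.3) by lmFit and eBayes, with the 4 group means in a single model. The contrasts were each group against 0, VIN7 minus W27 at both temperatures, 12 minus 28 °C within each hybrid, and the interaction. A Benjamini-Hochberg adjusted p under 0.05 over all ORFs counted as a call. The rule of the methods was also used, a median over at least 2 arrays of at least 2-fold. Values beyond 2-fold describe arrays and are no test. The fit was run on simulated data with independent noise and 200 ORFs changed by more than any group mean of a member. It thus does not show how often changes of the size seen here would be found. Summaries used pandas 2.3.3 and numpy 2.4.6 in Python 3.11.15, and plots matplotlib 3.10.9.

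The list of members was set by systematic name and not by a measured value. The rules for naming members, the other lists and the alternatives were chosen with earlier results of these data known. Members were named if they had a call, if they passed 2-fold with the same sign on all 3 arrays of a group (at most the 4 highest and 4 lowest means), if they had 1 of the 3 lowest p values for VIN7 minus W27 at either temperature or for the interaction, or 1 of the 3 highest or lowest r of the likeness. Other members were named to spell out small counts, as extremes or as examples, after their values were seen. Alternatives were the mean for the median, a value on all 3 arrays, 1.5-fold, recentred arrays, recentred and scaled arrays, extreme values left out (beyond 15 to either side) or set to the quantiles at 0.1% and 99.9%, array weights, a replicate block, a robust prior, only the arrays compared, replicate C of VIN7 at 28 °C turned, a running median over 51 ORFs removed, and leaving out each array. Subunits, other mitochondrial gene lists and sequences of the members were not analysed here, as the systematic names were not paired with annotation. Deviations from the group means of same-letter arrays correlated at 0.22 to 0.57 in all 3 letter pairs of VIN7 at 12 and 28 °C, so letters were taken to pair arrays in that comparison, from the data and not the labels. The block over the VIN7 arrays alone was added after the data were seen, as were values of single members and chromosomes, and counts of arrays without overlap, with an array turned or left out.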

Additional observations from a re-analysis of the deposited data

How the results depend on the processing

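With 3 arrays a group, the data allowed no firm statement on a single member. Under the 25 alternatives planned, the 9 counts of members that passed the test were 0 except for YMR158W in 2 comparisons (VIN7 over T73 at 12 °C, and 12 minus 28 °C within VIN7), where the count ranged from 0 to 1 when 1 array was left out. Of 21 values of named members, 18 kept their direction and 3 changed it, all with replicate C of VIN7 at 28 °C turned: YHR147C (−0.63) and YNL284C (−0.14) in VIN7 over T73 and YMR193W (0.23) in VIN7 minus W27. The cause was not tested. That setting gave VIN7 at 28 °C a member median of −0.12 (0.06 over all ORFs) and 2 members 2-fold up. The share of all ORFs was not computed for this count, so it does not show a move particular to the members. Outside the VIN7 comparison of temperatures, no pair of groups had correlations of same-letter deviations over 0.1 in all 3 pairs. They ran from −0.44 to 0.17, and letters were not taken to pair arrays there. This does not show that same-letter arrays shared no step of the work. A replicate block left 0 members called in each comparison, with lowest adjusted p values of members at 12 °C of 0.266 for W27 and 0.0777 for VIN7.

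The counts past 2-fold moved more. A threshold of 1.5-fold, looser by construction, gave at 12 °C 7 up and 14 down for W27 and 11 and 12 for VIN7, and at 28 °C 3 and 12 for W27 and 12 and 4 for VIN7. For W27 at 28 °C, the mean in place of the median gave 1 up, recentred arrays 2 down, recentred and scaled arrays 1 up and 5 down, and removal of the trend along the order of names 0 down. Removing the trend gave 2 up for W27 at 12 °C and 1 up for VIN7 at 28 °C. For VIN7 at 28 °C, recentring gave a member median of 0.001 and recentring with scaling −0.051 with 2 down. Leaving out 1 array gave W27 at 12 °C 1 to 7 up and 1 to 11 down, VIN7 at 12 °C 3 to 8 up and 5 to 7 down, W27 at 28 °C 0 to 3 up and 1 to 2 down, and VIN7 at 28 °C 5 to 7 up, 2 to 3 down and a median of −0.034 to 0.23. Fewer arrays enter each of these medians. Shares of all ORFs were not computed for the counts of this paragraph, so they do not show a move particular to the members.

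Counts at an unadjusted p under 0.05 also moved with the fit. Array weights gave 11 of 40 members for W27 at 12 °C (28.8% of all ORFs), and at 28 °C 1 for W27 (12.5%) and 2 for VIN7 (7.47%). For VIN7 minus W27 they gave 2 at 12 °C (2.97%) and 0 at 28 °C (5.96%). Removing the trend gave for VIN7 10 at 12 °C (21.5%) and 3 at 28 °C (12.1%), and 2 for VIN7 minus W27 at 28 °C (9.59%). Recentred and scaled arrays gave 2 in W27 at 28 °C (15.1%) and 3 for 12 minus 28 °C in W27 (8.53%). A fit of only the arrays compared gave 1 in W27 at 28 °C (10.8%). For 12 minus 28 °C in VIN7, array weights gave 4 (15.1%), scaling 5 (13.9%) and a fit of only its arrays 5 (14.3%). For VIN7 minus W27 at 12 °C a robust prior gave 0 (2.06%) and the block 2 (2.16%), and the block gave 1 for the interaction (3.53%).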
